A study of Homo sapiens with 9 samples.

Results

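The effect of the vehicle alone was examined in ASC52telo cells, a line of adipose-derived mesenchymal stem cells (ASCs) kept dividing by the introduced hTERT gene. Of the 9 arrays of the study, 6 entered this comparison, namely 3 from ASCs treated with DMSO and 3 from ASCs treated with differentiation media (DM), while the arrays of cells given the Rab7 inhibitor were left out. ASCs treated with DMSO were kept for 10 days in DM to which 0.1% DMSO had been added. ASCs treated with DM had the same medium for 10 days without the solvent. In both groups the medium was EpiLife with its defined growth supplement, BMP-4, EGF, ascorbic acid 2-phosphate, hydrocortisone and all-trans retinoic acid, on rat tail collagen I. All cells come from 1 immortalized line, and the submitters call the 3 samples of a group biological replicates. Whether each had its own culture is not said, and the p-values therefore reflect only how these samples varied, which may be technical variation. The comparison covers 21448 probe sets of the Clariom S Human array, of which 17709 carry 1 gene symbol and stand for 17687 named genes, and 3739 carry none.

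Dimethyl sulfoxide is a small, polar, water-miscible solvent in which hydrophobic compounds are dissolved before they are added to cells. It crosses membranes freely, serves as a cryoprotectant, and in higher amounts is known to alter the differentiation of several cell types. Enzymes can reduce it to dimethyl sulfide or oxidise it to dimethyl sulfone. In the medium used here, BMP-4 and retinoic acid are the signals given to turn stromal cells towards an epithelial fate, EGF drives the ERK kinase cascade, hydrocortisone acts through the glucocorticoid receptor, and ascorbate serves the hydroxylases that mature collagen.

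No gene passed the test in this comparison. A differentially expressed gene (DEG) is a probe set with an adjusted p under 0.05 (limma on the 6 arrays, Benjamini-Hochberg over all probe sets) and a linear fold change of at least 1.5, and 0 of 21448 probe sets (0.00%) met this definition. The methods' t-test, which the study names in its general statistics and not for the arrays, also gave 0 after the same adjustment. At an unadjusted p under 0.05, limma gave 599 probe sets that were higher with DMSO (2.79%) and 836 that were lower (3.90%), together 1435 against the 1072 that would lie there with no difference at all. The split between the directions depends on the scaling of the arrays. The array medians were 7.06, 7.08 and 7.07 with DMSO, against 7.14, 7.12 and 7.11 with DM, and once each array was centred on its median there were 1031 higher and 523 lower. Quantile normalization of the deposited values gave 678 higher and 754 lower, and cyclic loess gave 663 and 786. Fewer cells of a type and less RNA per cell cannot be told apart in such bulk samples.

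The differences were small, and most of them were bounded closely. The median size of the log2 fold change, which is given throughout as DMSO minus DM, was 0.12 over all probe sets, and 95% of the sizes lay below 0.42. The 95% confidence interval of the log2 fold change lay wholly within a 2-fold change in either direction for 97.6% of the probe sets, and within a 1.5-fold change for 70.4%. Among the named genes these shares were 98.3% and 72.6%. A 2-fold difference in the group means was reached by 1 named gene that was higher with DMSO (CYP4B1) and by 3 that were lower (SGIP1, TFPI2 and ARMCX4). All 3 DMSO arrays lay above all 3 DM arrays at 1189 probe sets (5.54%) and below them at 1341 (6.25%), or at 2187 and 780 after median centring. These counts were 1346 and 1290 after quantile normalization, and 1315 and 1355 after cyclic loess. The smallest two-sided p that an exact permutation test can give for 3 arrays against 3 is 0.1.

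**Figure D1:**
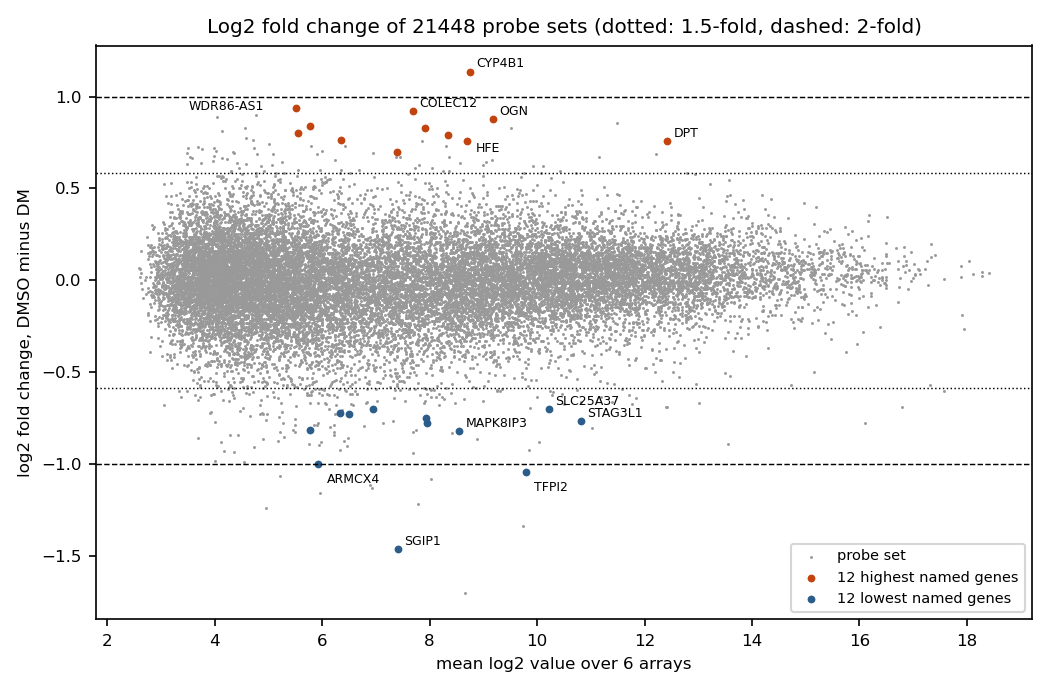
The log2 fold change (DMSO minus DM) of each of 21448 probe sets is plotted against its mean log2 value over the 6 arrays, with dotted lines at 1.5-fold and dashed lines at 2-fold. Coloured points are the 12 highest and the 12 lowest named genes described in the text, of which CYP4B1, SGIP1, TFPI2 and ARMCX4 lie at or beyond the dashed lines.

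The 6 arrays did not fall apart by group. The Euclidean distance over all probe sets was 46.5 to 53.4 between a DMSO and a DM array, 45.8 to 48.1 between DMSO arrays and 45.7 to 52.2 between DM arrays. DM replicate 2 stood furthest from the others of its group and had the lowest array weight in limma (0.69). Bright genes leaned slightly upwards with DMSO: the median log2 fold change was 0.05 among the 521 named genes with a mean log2 value of 14 or more, 0.03 among the 1529 from 12 to 14, and -0.03 among the 2824 from 6 to 8.

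The cells of both groups carried most markers of mesenchymal stromal cells and a smaller share of those of keratinocytes and epithelia. Of 16 measured mesenchymal markers, 15 had a mean log2 value over the 6 arrays above 5.38, the bound below which 33.3% of all probe sets lie and below which a probe set is called dim here. The exception was PI16. VIM, the intermediate filament of mesenchymal cells, had log2 values of 16.86, 16.83 and 16.88 with DMSO, against 16.82, 16.72 and 16.80 with DM. Of 31 measured keratinocyte and epithelial markers, 11 lay above this bound. Among them were DSP (mean 10.80 with DMSO and 10.99 with DM), KRT8 (9.87 and 10.04) and KRT16 (8.59 and 8.46). The keratin of basal keratinocytes KRT5 had 4.11, 4.39 and 4.46 with DMSO, against 4.15, 4.91 and 4.48 with DM, and its partner KRT14 had 3.32, 4.08 and 3.34 with DMSO, against 3.30, 3.72 and 3.49 with DM. The groups overlapped for KRT5 and KRT14, and the probe sets of both were dim. At an unadjusted p under 0.05, where 2.79% of all probe sets were higher and 3.90% lower, stood 1 mesenchymal marker, the growth factor receptor PDGFRB (log2 fold change 0.31, SE 0.12, limma adjusted p = 0.724), and 1 epidermal marker, the cornified envelope protein LORICRIN (0.36, SE 0.15, adjusted p = 0.739), both higher with DMSO.

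Some markers of other cell types were not dim, by their mean over the 6 arrays. They were 6 of 11 endothelial markers, 6 of 12 leukocyte markers, 5 of 7 pericyte and smooth muscle markers, 5 of 9 markers of mature adipocytes, 4 of 8 chondrocyte and osteoblast markers and 5 of 7 neural and Schwann markers. Before adjustment (p under 0.05 in limma), 2 endothelial, 2 leukocyte and 1 adipocyte marker were lower with DMSO, and 1 pericyte marker was higher. Of the chondrocyte and osteoblast markers, 2 were higher and 1 lower. Among all these markers with an unadjusted p under 0.05, only RUNX2, the lower one of the last list, was not dim. Over all probe sets, 2.79% were higher and 3.90% lower at this level. The list medians of the log2 fold change were 0.06 for endothelial, 0.005 for leukocyte and 0.03 for adipocyte markers. They were -0.15 for pericyte and smooth muscle, 0.09 for chondrocyte and osteoblast and 0.08 for neural and Schwann markers. The part of other cell types in the results was not tested.

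Among named genes, the largest log2 fold change and the smallest p were at SGIP1, whose product binds membrane phospholipids and the AP-2 adaptor during clathrin-mediated endocytosis. Its log2 values were 6.63, 6.52 and 6.87 in ASCs treated with DMSO, against 8.10, 8.33 and 7.98 in ASCs treated with DM. All DMSO arrays lay more than 1 log2 unit below all DM arrays. The log2 fold change was -1.46 (SE 0.15, 95% interval -1.80 to -1.13), which is a 2.76-fold lower value with DMSO, and the limma adjusted p was 0.109. With all 9 arrays in the fit, so that the inhibitor arrays helped to estimate the spread, SGIP1 was the only DEG (adjusted p = 0.00796, 0.00466% of probe sets). A trended and robust prior in the 6-array fit also brought it below the threshold (adjusted p = 0.0276). Leaving out each array in turn kept the log2 fold change between -1.56 and -1.37 and the adjusted p between 0.298 and 0.815.

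The other genes of clathrin-mediated endocytosis stayed close to zero difference. Of 40 measured members, SGIP1 included, 0 were DEGs and 1 (SGIP1) had an unadjusted p under 0.05, and 39 had a 95% interval within 2-fold. At this p, 2.79% of all probe sets were higher and 3.90% lower. The median over the list was 0.03, beside 0.00 over all named genes. Only 2 other members had groups that did not overlap, where 5.54% of all probe sets lay above and 6.25% below. These were the AP-2 subunits AP2S1, with 10.40, 10.79 and 10.28 with DMSO against 10.10, 10.21 and 10.20 with DM, and AP2A2, with 13.26, 13.14 and 13.10 with DMSO against 12.85, 12.99 and 13.04 with DM. Their log2 fold changes were 0.32 (SE 0.15) and 0.21 (SE 0.12), opposite in sign to that of SGIP1. The late endosomal GTPase gene RAB7A had 16.35, 16.20 and 16.28 with DMSO and 16.25, 16.12 and 16.23 with DM, and its interval ran from -0.19 to 0.34.

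**Figure D2:**
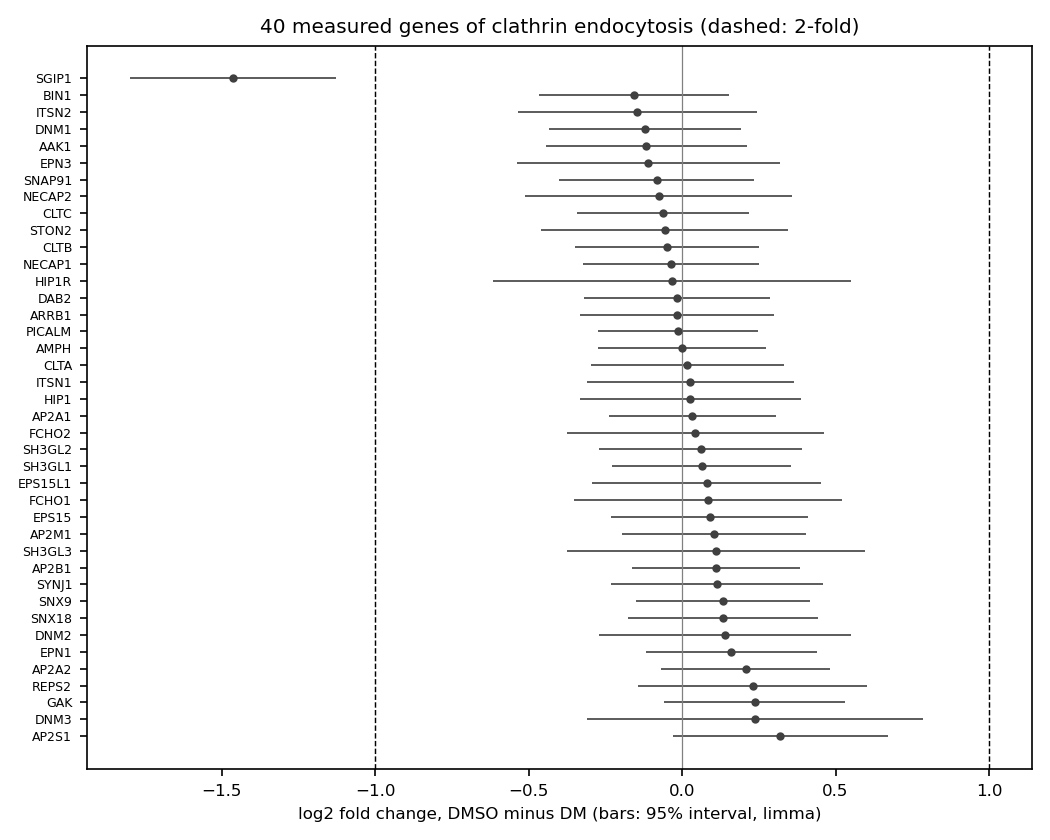
The log2 fold change (DMSO minus DM) of the 40 measured genes of clathrin endocytosis is shown with its 95% interval from limma, and dashed lines mark 2-fold. SGIP1 at -1.46 lies apart, and the intervals of the other 39 genes stay between the dashed lines.

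Among genes higher with DMSO, CYP4B1, a cytochrome P450 of the fatty acid hydroxylating family, had the largest log2 fold change (1.14, SE 0.31, limma adjusted p = 0.708). Its log2 values were 9.63, 9.09 and 9.24 with DMSO, against 8.89, 7.54 and 8.12 with DM. The DM arrays spread over more than 1 log2 unit, and the closest pair across the groups was 0.20 apart. Leaving out each array in turn gave 0.82 to 1.49, and the change was 0.82 without DM replicate 2. The non-coding WDR86-AS1, antisense to WDR86, had 6.08, 5.93 and 5.96 with DMSO, against 4.54, 5.04 and 5.58 with DM, so that its spread too lay among the DM arrays.

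The other 10 of the 12 highest genes had log2 fold changes of 0.70 to 0.92. OGN, a small leucine-rich proteoglycan that binds collagen fibrils, had 9.64, 9.71 and 9.52 with DMSO, against 8.80, 8.59 and 8.84 with DM, and the lowest unadjusted p of the 12 (8.421e-05; log2 fold change 0.88, SE 0.13, limma adjusted p = 0.581). Its arrays were tight in both groups and 0.68 apart at the closest. DPT, which binds decorin in the dermal matrix, had 12.65, 12.59 and 13.15 with DMSO, against 12.36, 11.52 and 12.24 with DM. THSD4, a matrix protein of fibrillin microfibrils, had a log2 fold change of 0.79 (SE 0.21). The scavenger lectin COLEC12 had 8.45, 7.66 and 8.34 with DMSO against 7.37, 6.94 and 7.38 with DM, and the innate immune receptor TLR6 had 8.27, 8.31 and 8.38 with DMSO against 7.69, 7.69 and 7.10 with DM. The interferon lambda receptor chain IFNLR1 (0.76, SE 0.26), the T cell costimulator ICOSLG (0.80, SE 0.19) and HFE, an MHC-like regulator of iron uptake (0.76, SE 0.16), lay higher as well. LRRC74A (0.84, SE 0.17) and the ubiquitin ligase RNF181 (0.70, SE 0.18) complete the 12.

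Among the genes lower with DMSO, TFPI2, a Kunitz-type inhibitor of matrix-degrading serine proteases, had 9.56, 9.28 and 8.98 with DMSO, against 9.85, 10.55 and 10.56 with DM (log2 fold change -1.05, SE 0.23, limma adjusted p = 0.606). ARMCX4, an armadillo repeat gene, had 5.63, 5.23 and 5.43 with DMSO, against 6.74, 6.35 and 6.20 with DM. The groups were 0.57 apart at the closest for ARMCX4 and 0.29 for TFPI2. MAPK8IP3, a scaffold that links the JNK kinases to kinesin transport, had 8.22, 8.08 and 8.12 with DMSO, against 9.10, 9.20 and 8.59 with DM. SLC25A37, which carries iron into mitochondria, had 10.06, 9.70 and 9.87 with DMSO, against 10.84, 10.54 and 10.36 with DM. The tetraspanin of norrin signalling TSPAN12 (-0.81, SE 0.22), the zinc finger gene ZNF692 (-0.72, SE 0.15) and LCAT, which esterifies cholesterol on lipoproteins (-0.70, SE 0.27), were also among the 12. GOLGA8A (-0.78), GOLGA8B (-0.75), STAG3L1 (-0.77) and PTTG2 (-0.73) have near-identical copies elsewhere in the genome, so that their probes cannot be assigned to 1 gene with certainty.

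**Figure D3:**
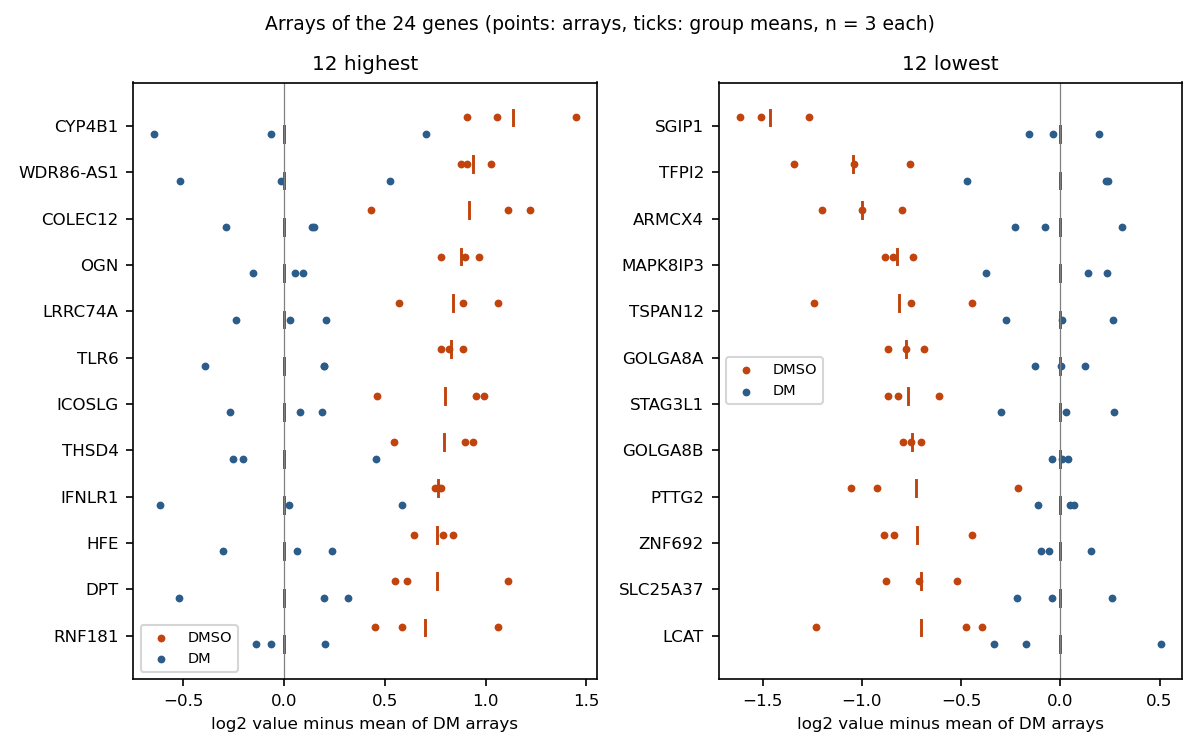
Each point is 1 array, drawn as its log2 value minus the mean of the 3 DM arrays, for the 12 highest (left) and 12 lowest (right) named genes that were not dim and whose groups did not overlap; vertical ticks are group means. OGN and SGIP1 show tight, well separated groups, while CYP4B1, WDR86-AS1 and IFNLR1 show DM arrays spread over more than 1 log2 unit.

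Genes activated by p53, the transcription factor of the DNA damage response, leaned towards lower values with DMSO. Of 40 measured, 0 were DEGs, 31 had a negative log2 fold change, 8 were lower and 1 was higher at an unadjusted p below 0.05 (3.90% and 2.79% of all probe sets), and 11 had all DMSO arrays below all DM arrays, where 6.25% of all probe sets did. The list's median log2 fold change was -0.14. DDB2, which recognises ultraviolet damage in DNA, had 8.82, 8.61 and 8.57 with DMSO, against 9.22, 9.49 and 9.27 with DM (log2 fold change -0.66, SE 0.13, limma adjusted p = 0.594). TNFRSF10D, a decoy receptor for TRAIL, had 9.78, 10.28 and 9.91 with DMSO, against 10.66, 10.58 and 10.56 with DM. The other 6 lower members were CYFIP2 (-0.54), the receptor EDA2R (-0.38), SPATA18 of mitochondrial quality control (-0.38), the nuclease AEN (-0.33), the pore-forming BAX (-0.33) and the quinone reductase TP53I3 (-0.31). The higher one was APAF1 of the apoptosome (0.28, SE 0.12). The best known targets had groups that overlapped: CDKN1A, an inhibitor of cyclin-dependent kinases, had a log2 fold change of -0.31 (95% interval -0.73 to 0.10) and the ubiquitin ligase MDM2 had -0.15 (-0.48 to 0.18). The 8 lower members became 4 without DM replicate 2, 4 without DMSO replicate 1, 5 without DM replicate 1 and 4 after median centring, and the median stayed between -0.20 and -0.09 with each array left out and after median centring.

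Cytokines, chemokines and acute phase genes included members in both directions. Of 48 measured members, 0 were DEGs, 7 were lower and 2 higher before adjustment (p under 0.05; 3.90% and 2.79% of all probe sets), 27 had a negative and 20 a positive log2 fold change, and the median of the whole list was -0.01, or 0.04 after median centring. The lower ones were CXCL2, CXCL3, CXCL5, CXCL6 and CXCL8, which all signal through the same family of receptors on neutrophils, with IL6 and CCL26. The probe set of CCL26 was dim. CXCL5 had 7.84, 7.89 and 7.65 with DMSO, against 8.56, 8.28 and 8.44 with DM (log2 fold change -0.63, SE 0.13, limma adjusted p = 0.594). CXCL3 had 8.28, 8.10 and 8.01 with DMSO, against 9.03, 8.92 and 8.45 with DM, and CXCL6 had 6.68, 6.89 and 6.66 with DMSO, against 7.15, 7.41 and 7.15 with DM. The groups did not overlap for these 3 genes, nor for CXCL2 (-0.49) and IL6 (-0.56). They overlapped for CXCL8, with 8.03, 8.05 and 7.49 with DMSO against 8.63, 8.75 and 7.91 with DM, and for CXCL1, with 10.02, 9.08 and 8.44 with DMSO against 10.12, 10.14 and 9.54 with DM. For CXCL1 the log2 fold change of -0.75 had an interval of -1.56 to 0.06. The monocyte attractant CCL2 had a log2 fold change of -0.47 (-1.01 to 0.07). The higher members were RELB, a subunit of NF-kB, with 6.31, 6.69 and 6.68 with DMSO against 5.93, 5.57 and 6.21 with DM, and the complement protease C1R (0.34, SE 0.13). The number of lower members stayed at 6 or 7 whichever array was left out, and was 10 with a replicate block.

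Genes of the EGF and ERK response had mostly negative log2 fold changes. Of 31 measured, 21 were negative and 10 positive, 0 were DEGs, 4 were lower and 1 higher before adjustment (p under 0.05; 3.90% and 2.79% of all probe sets), and the median log2 fold change was -0.12. After median centring the median was -0.07 and 3 members were lower. FOSL1, a member of the AP-1 transcription factor that ERK stabilises, had 11.48, 11.43 and 11.38 with DMSO, against 11.88, 12.22 and 12.21 with DM (log2 fold change -0.67, SE 0.14, limma adjusted p = 0.594). ETV5, an ETS factor, had 10.76, 10.83 and 11.04 with DMSO, against 11.21, 11.86 and 11.46 with DM. The groups did not overlap for these 2 genes, for the ephrin receptor EPHA2 (-0.53, SE 0.17) or for PHLDA1 (-0.38, SE 0.15). TGFA, itself a ligand of the EGF receptor, was the higher member (0.55, SE 0.22), with overlapping groups and a dim probe set. The number of lower members was 3 to 6 as each array was left out, with 6 without DMSO replicate 1, and the median lay between -0.17 and -0.05.

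Interferon-stimulated genes, which encode the antiviral proteins, leaned towards higher values with DMSO. Of 46 measured, 0 were DEGs, 5 were higher and 0 lower before adjustment (p under 0.05; 2.79% and 3.90% of all probe sets), 6 had all DMSO arrays above all DM arrays, where 5.54% of all probe sets did, and the median was 0.09. OAS1, a synthetase of the RNase L activator, had 9.14, 8.30 and 8.67 with DMSO, against 8.10, 7.93 and 8.07 with DM (log2 fold change 0.67, SE 0.20, limma adjusted p = 0.708). IFIT1, which binds viral RNA caps, had 10.39, 10.68 and 10.52 with DMSO, against 10.15, 9.75 and 10.02 with DM, and SAMD9 had 12.10, 12.01 and 12.07 with DMSO, against 11.71, 11.60 and 11.67 with DM. IFIT3 (0.40, SE 0.14) and USP18 (0.48, SE 0.19) were the other 2. The 5 higher members became 3 without DM replicate 2 and 3 without DMSO replicate 3.

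Matrix glycoproteins and proteoglycans had more positive than negative log2 fold changes, 43 against 20. Of 64 measured, 0 were DEGs, 8 were higher and 2 lower before adjustment (p under 0.05; 2.79% and 3.90% of all probe sets), 10 lay above and 4 below on all arrays (5.54% and 6.25% of all probe sets), and the median log2 fold change was 0.13. The median level of the list was 11.26 with DMSO. Among the 2838 named genes with a mean of 10 to 12, 7.54% lay above and 5.85% below. Beside OGN, described above, the higher ones were CLEC3B, IGFBP7, NID1, TNC, LUM, COMP and CILP, the last at a dim probe set. CLEC3B, which binds plasminogen, had 9.87, 10.88 and 10.34 with DMSO, against 9.75, 9.74 and 9.84 with DM, so that its DMSO arrays spread over more than 1 log2 unit. The basement membrane linker NID1 had 16.34, 16.29 and 16.33 with DMSO, against 16.10, 15.98 and 15.91 with DM (log2 fold change 0.32, SE 0.12, limma adjusted p = 0.724). The fibril-associated proteoglycan LUM (0.47) and the adhesion-modulating TNC (0.52) overlapped between the groups. The lower members were THBS3 (-0.35) and ECM1 (-0.36). The number of higher members was 3 without DM replicate 3, 4 without DM replicate 2, 4 without DMSO replicate 3, 5 without either other DMSO array and 13 after median centring.

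Collagen chains had more positive than negative log2 fold changes, 21 against 7, or 17 against 11 without DM replicate 3. Of 28 measured, 0 were DEGs, 3 were higher and 1 lower before adjustment (p under 0.05; 2.79% and 3.90% of all probe sets), the median was 0.10, and all 28 intervals lay within 2-fold. COL14A1, a fibril-associated collagen, had 10.59, 10.27 and 10.58 with DMSO, against 10.01, 10.30 and 9.66 with DM, with an overlap at 1 array of each group. The other 3 were COL10A1 (0.47), COL11A1 (0.41) and COL4A6 (-0.35), whose probe sets were all dim. Without DMSO replicate 3 there were 0 higher members.

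Among 33 matrix proteases and their inhibitors, 2 were lower and 1 higher before adjustment (p under 0.05; 3.90% and 2.79% of all probe sets). SERPINE2, an inhibitor of thrombin and plasminogen activators, had 14.45, 14.60 and 14.30 with DMSO, against 14.92, 14.93 and 15.21 with DM (log2 fold change -0.57, SE 0.14, limma adjusted p = 0.697). The collagenase MMP1 lay lower with DMSO (-0.44, SE 0.17), and TIMP3, a metalloprotease inhibitor held in the matrix, lay higher (0.34, SE 0.14).

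The contractile genes of myofibroblasts had the highest median of all lists, at 0.17. Of 26 measured, 0 were DEGs, 21 had a positive log2 fold change, 5 were higher and 0 lower before adjustment (p under 0.05; 2.79% and 3.90% of all probe sets), and 6 lay above on all arrays (5.54% of all probe sets). The list is bright, with a median level of 12.74 with DMSO. Among the 1529 named genes with a mean of 12 to 14, 57.6% were positive and 7.98% lay above, with 1.83% higher and 1.64% lower before adjustment. The non-muscle myosin MYH10 had 14.44, 14.38 and 14.60 with DMSO, against 14.30, 14.08 and 14.16 with DM (log2 fold change 0.29, SE 0.13, limma adjusted p = 0.746). The tropomyosin TPM2 had 13.32, 13.42 and 13.31 with DMSO, against 13.08, 13.15 and 13.00 with DM. The actin-binding TAGLN (0.34) and LMOD1 (0.56) and the filament DES (0.45) were the other 3, and the probe set of DES was dim. ACTA2, the smooth muscle actin that marks myofibroblasts, had a log2 fold change of -0.15 (95% interval -0.55 to 0.25) with overlapping groups. The 5 higher members became 0 without DM replicate 3, 1 without DMSO replicate 1, 1 without DMSO replicate 3, 3 without either of the 2 arrays with replicate number 2, and 2 after quantile normalization, after cyclic loess and with a replicate block.

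**Figure D4:**
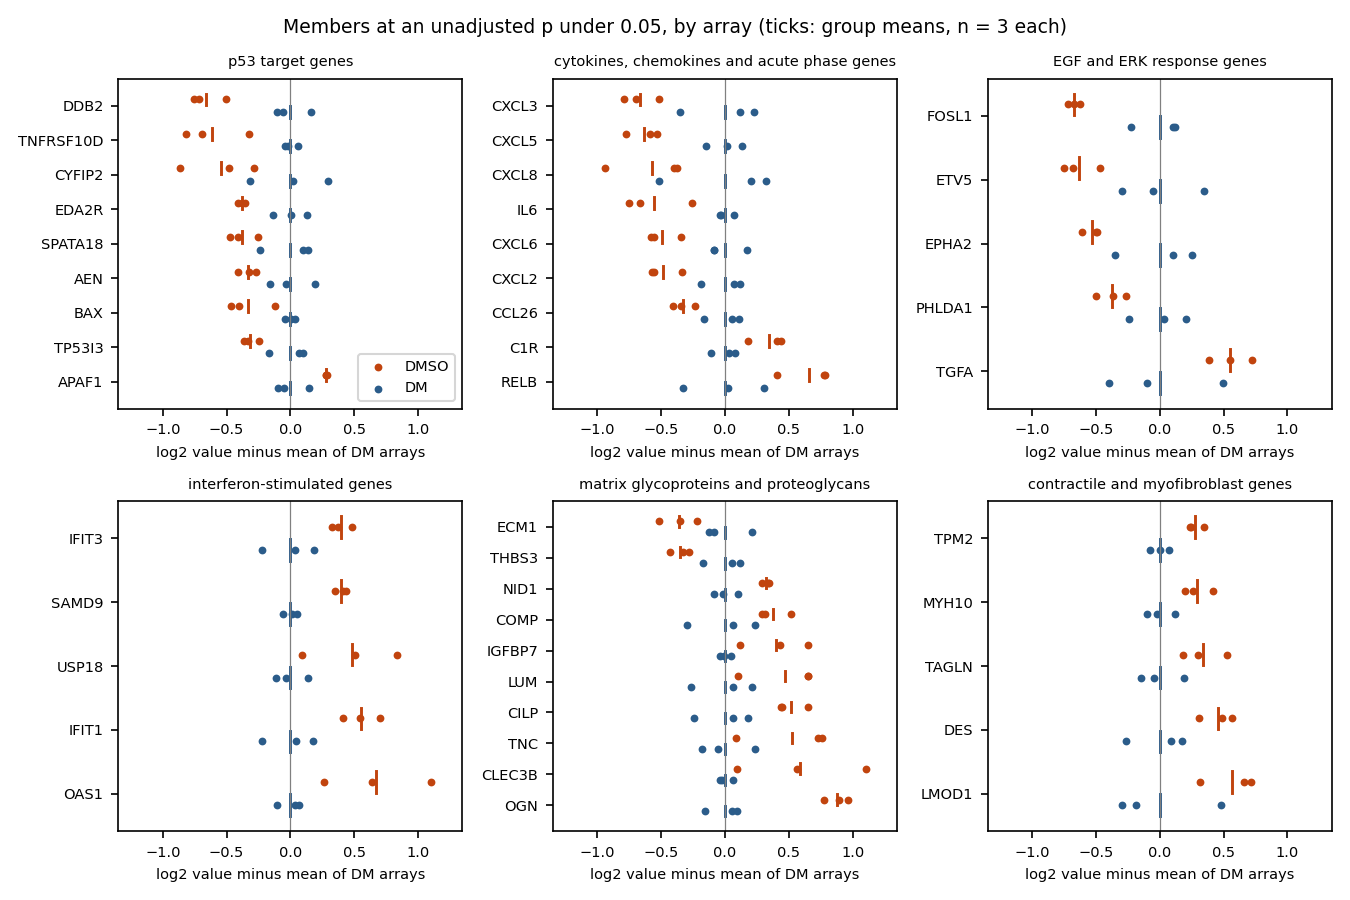
Each point is 1 array, drawn as its log2 value minus the mean of the 3 DM arrays, for the members of 6 gene lists with an unadjusted p under 0.05; vertical ticks are group means. Members of the p53, cytokine and ERK lists lie mostly to the left, and those of the interferon, matrix and contractile lists mostly to the right, with no member past the adjusted threshold.

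The pathways through which the additives of the medium act showed no gene past the threshold with DMSO. At an unadjusted p under 0.05, 2.79% of all probe sets were higher and 3.90% lower. Of 24 measured glucocorticoid target genes, 2 were lower at an unadjusted p under 0.05: ANGPTL4, an inhibitor of lipoprotein lipase, had 5.40, 5.25 and 5.52 with DMSO, against 5.77, 5.71 and 5.73 with DM, and the kinase PDK4 had a log2 fold change of -0.45 (SE 0.18). None of the 26 BMP pathway genes, the 20 retinoic acid genes or the 23 genes of ascorbate transport and hydroxylation reached an unadjusted p under 0.05 in limma, and leaving out each array in turn gave at most 1 higher and 2 lower, 0 and 1, and 2 and 1. The BMP receptor ACVR1 had a log2 fold change of 0.21 (SE 0.12) and the retinoic acid receptor RARA of -0.19 (SE 0.12), both with groups that did not overlap. Each was the only such member of its list, where 5.54% of all probe sets lay above and 6.25% below. The medians of these 4 lists lay between -0.03 and 0.06.

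Genes that could handle or sense the solvent itself included 1 member at an unadjusted p under 0.05. At this level 2.79% of all probe sets were higher and 3.90% lower. Of 31 measured genes of sulfur amino acid and sulfoxide metabolism, 0 had an unadjusted p under 0.05 in limma, all 31 intervals lay within 2-fold, and the median was 0.00. The methionine sulfoxide reductase MSRB3 had 12.67, 12.67 and 12.84 with DMSO, against 12.59, 12.50 and 12.40 with DM, and GOT2, which can use cysteine sulfinate, had 11.35, 11.30 and 11.04 with DMSO, against 11.46, 11.42 and 11.57 with DM. Their groups did not overlap, in opposite directions, with log2 fold changes of 0.23 (SE 0.12) and -0.25 (SE 0.13). Over all probe sets 5.54% lay above and 6.25% below in this way. Of 18 genes of water channels and osmotic response, 13 had a negative log2 fold change, with a median of -0.09, and 1 was lower at an unadjusted p under 0.05, the intracellular aquaporin AQP11 (-0.35, SE 0.15), while AQP1 was at 0.19 and the kinase STK39 at -0.17. Of 11 metallothioneins and zinc response genes, 0 had an unadjusted p under 0.05 or groups that did not overlap, and the log2 fold changes ran from -0.19 to 0.12.

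Genes of stress responses gave few members at an unadjusted p under 0.05, where 2.79% of all probe sets were higher and 3.90% lower. Among 35 NRF2 target genes 0 had an unadjusted p under 0.05, and thioredoxin (TXN) had the largest difference of the bright members whose groups did not overlap (-0.26, SE 0.12). Among 11 genes of xenobiotic metabolism under AHR there was 1, the P450 gene CYP1B1, with 12.72, 12.71 and 12.89 with DMSO, against 13.26, 12.90 and 13.27 with DM (log2 fold change -0.37, SE 0.14, limma adjusted p = 0.724). Among 28 heat shock proteins there was 1, the inducible HSPA1A, with 11.05, 10.77 and 10.93 with DMSO, against 10.57, 10.36 and 10.68 with DM (0.38, SE 0.14, limma adjusted p = 0.724). HSPA1A has a near-identical neighbour copy, so that its probes may read both. Among 33 genes of the unfolded protein response there were 2 in opposite directions, the phosphatase subunit PPP1R15A (-0.54, SE 0.20) and the chaperone DNAJB9 (0.33, SE 0.15).

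Proliferation, chromatin and metabolism gave few members with an unadjusted p under 0.05, where 2.79% of all probe sets were higher and 3.90% lower. Among 65 cell cycle genes there were 0 in limma, with a median of -0.10 and 41 negative values, and CDK2, a kinase of the S phase, had 10.73, 10.96 and 10.86 with DMSO, against 11.07, 11.18 and 11.08 with DM. There were 8 lower cell cycle genes without DMSO replicate 2 and 6 without DM replicate 1. Of 37 chromatin-modifying enzymes, the acetyltransferase KAT2A was lower (-0.36, SE 0.16), and its paralog KAT2B had 0.20 (SE 0.13). Of 38 nuclear genes of oxidative phosphorylation, 1 complex I subunit was lower, NDUFB8, with 10.11, 9.98 and 10.03 with DMSO, against 10.40, 10.45 and 10.42 with DM (-0.38, SE 0.11, limma adjusted p = 0.708), and 36 of the 38 intervals lay within 1.5-fold. Among 33 genes of glycolysis and hypoxia response 2 were lower, ANGPTL4 and PDK1 (-0.38, SE 0.16), and the angiogenic factor VEGFA had -0.20 (SE 0.11). For 30 genes of sterol and fatty acid synthesis the count was 0 and all intervals lay within 2-fold. For 35 genes of lipid storage it was 2, again ANGPTL4 and PDK4. For 37 genes of autophagy and lysosomes it was 0 and all intervals lay within 2-fold, with the lysosomal enzymes CTSB (0.20) and HEXA (0.22) above on all arrays.

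**Figure D5:**
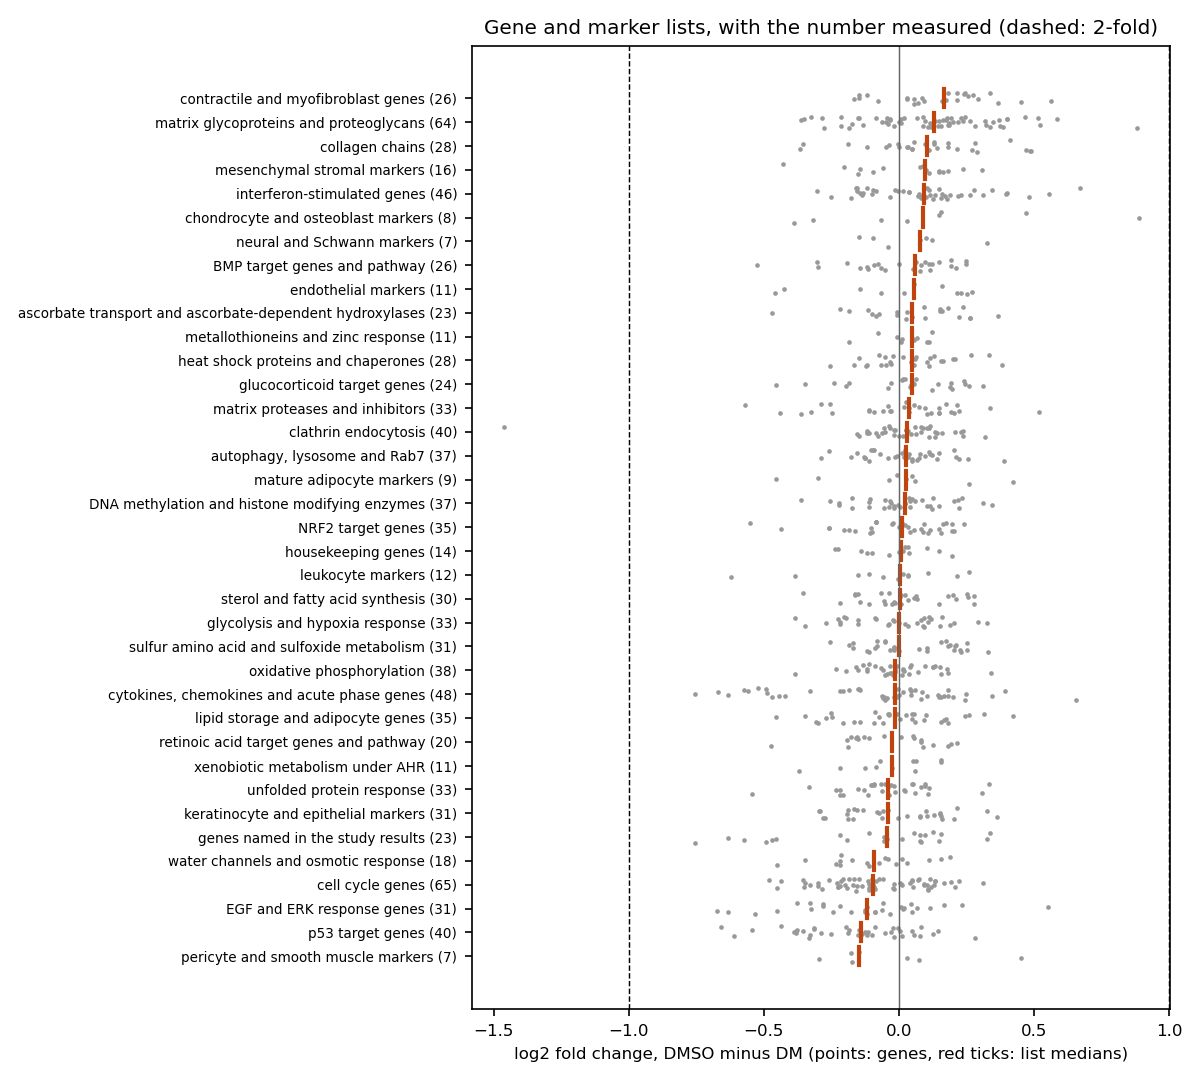
Each grey point is 1 gene's log2 fold change (DMSO minus DM) in the gene or marker list named at the left, with the number measured in brackets, and red ticks are list medians, ordered from the highest at the top. Medians run from 0.17 for contractile genes to -0.15 for the 7 pericyte and smooth muscle markers, and SGIP1 is the only point beyond the 2-fold lines.

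Genes used as references and a selection of those that the study named were examined as well. The 14 housekeeping genes had log2 fold changes between -0.24 and 0.20, with all intervals within 2-fold and none at an unadjusted p under 0.05 in limma under any array left out. GAPDH, the reference of the study's qPCR, had 16.75, 16.69 and 16.56 with DMSO, against 16.78, 16.78 and 16.79 with DM, which is a log2 fold change of -0.12 (SE 0.12). All DMSO arrays lay below all DM arrays for GAPDH, PPIA (-0.23, SE 0.12) and TBP (-0.10, SE 0.11), and above them for ACTB (0.20, SE 0.12). Over all probe sets 6.25% lay below and 5.54% above in this way. Of 23 genes selected from the study's results and its supplementary gene list, 20 had a 95% interval within 2-fold. The study's results name further genes that this selection leaves out, among them IL6, described above as lower with DMSO. The 4 at an unadjusted p under 0.05, CXCL5, CXCL6, CXCL8 and PDK4, were lower with DMSO, by 0.45 to 0.63 on the log2 scale, where 3.90% of all probe sets were lower at this level. The groups overlapped for CXCL8 and PDK4, and leaving out each array in turn gave 2 to 5 lower and 0 to 2 higher members. The filament-aggregating protein gene FLG had 4.16, 4.19 and 4.16 with DMSO, against 3.98, 4.10 and 3.45 with DM, at a dim probe set, and S100A4, another gene of mesenchymal cells, had a log2 fold change of -0.43 (95% interval -0.98 to 0.12).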

How the data were processed

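Total RNA of ASCs was hybridised to Clariom S Human arrays. The authors ran RMA (robust multi-array average) in Transcriptome Analysis Console, that is background correction, scaling of the arrays to 1 distribution and summarisation of probes, and deposited log2 values, 1 per probe set and array. Not given in the sources used here are the program's version, the RMA variant and the genome build. RMA compresses differences of dim probe sets, and log2 values of different probe sets are not on 1 scale of abundance. No column of values was left unused, and the labels name no batch. The number of arrays limits the precision.

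Group means of the 3 DMSO and 3 DM arrays were fitted in limma version 3.58.1 (R 4.3.3, lmFit and eBayes, 4 residual degrees of freedom), and p-values were adjusted by Benjamini-Hochberg over 21448 probe sets. Gene names come from the platform annotation through Entrez IDs, and where a gene had several probe sets, that of the highest mean over 9 arrays was taken. Dim probe sets are the 33.3% with a mean below 5.38. On simulated data from the same 21448 probe sets the fit recovered 96 of 100 2-fold and 100 of 100 4-fold changes with 12 false calls. On the measured arrays SGIP1 was 2.76-fold lower with DMSO and still missed the threshold (limma adjusted p = 0.109). The share of real 2-fold changes that 3 arrays per group would reveal was not tested. Named genes are the DEGs of either fit, the 12 highest and 12 lowest log2 fold changes that were not dim, with groups that did not overlap, up to 3 such members of each of 29 gene lists, RAB7A, housekeeping and study genes, and markers of 8 lists. List members at an unadjusted p under 0.05, and CDKN1A, MDM2 and ACTA2, were named after their values were seen. The members and lists were chosen with earlier results of these data known, so that lists are described by counts and medians and were not tested. Alternatives were all 9 arrays, other priors, filters, normalizations and thresholds, a replicate block, array weights, leaving out each array and the methods' t-test. Some items are not reported here.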

Additional observations from a re-analysis of the deposited data

How the results depend on the processing

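The count of DEGs was 0 in limma on the 6 arrays (1435 probe sets at an unadjusted p under 0.05), 1 with all 9 arrays (SGIP1) and 2 with a trended and robust prior (SGIP1 and an unnamed probe set). It was 0 with each array left out and under every other alternative run, including the methods' t-test (1277 at an unadjusted p under 0.05). Deviations of same-numbered arrays correlated at 0.01, 0.06 and -0.03, and those of arrays with other numbers at -0.07 to 0.06. Whether samples with the same number shared a culture or a day is not said, and these values cannot decide it. A replicate block gave 0 DEGs and 1476 probe sets at an unadjusted p under 0.05. That number lay between 1243 and 1513 with each array left out, and the share of intervals within 2-fold lay between 95.03% and 95.84% there and between 97.5% and 98.0% otherwise. Median centring moved the count of probe sets with DMSO above DM on all arrays to 2187 and below to 780 (chosen after seeing the data, as were the list counts by setting). Quantile normalization gave 1346 and 1290, and cyclic loess 1315 and 1355, also chosen after seeing the data. Of 114 genes named, 3 changed sign in at least 1 alternative, each with 1 array left out: the log2 fold change of KRT5 ran from -0.38 to 0.005, that of KRT14 from -0.17 to 0.21 and that of ACTA2 from -0.25 to 0.02. Of 370 list medians recomputed, 364 moved by less than the spread between arrays. Separate cultures, RMA background correction and probe summarisation could not be examined from these values.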

Other observations

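The platform annotation gives no gene for 3739 probe sets, and these leaned more to lower values with DMSO than the named ones. Among them 309 (8.26%) had all DMSO arrays below all DM arrays and 169 (4.52%) above, against 5.83% below and 5.76% above among the 17687 named genes. Of the unnamed probe sets, 251 (6.71%) were lower and 105 (2.81%) higher before adjustment (p under 0.05), against 3.90% and 2.79% of all probe sets. At least 2-fold lower were 9 of them, and 0 were at least 2-fold higher. The one with the lowest log2 fold change of all probe sets (-1.70, limma adjusted p = 0.594) had 8.31, 6.94 and 8.16 with DMSO, against 9.68, 9.73 and 9.11 with DM.

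One small block of the unnamed probe sets was noticed after the values had been seen. Each probe set ID carries a code that equals the RefSeq chromosome for 17695 of the 17702 named probe sets with such a code, and 10 probe sets carry the code M, all without a gene name. Of these 10, 8 had all DMSO arrays below all DM arrays and 0 above, 6 were lower at an unadjusted p under 0.05, and the median log2 fold change was -0.49, with a range of -0.89 to 0.04. The probe set with the largest difference had log2 values of 13.45, 12.90 and 13.00 with DMSO, against 14.11, 14.02 and 13.89 with DM, and another had 17.30, 17.23 and 17.29 with DMSO, against 17.90, 17.96 and 17.77 with DM. The smallest limma adjusted p of the 10 was 0.594 on the 6 arrays and 0.472 on all 9, and a trended and robust prior called 1 of them (adjusted p = 0.0276). The median lay between -0.58 and -0.40 with each array left out and was -0.44 after median centring. The 38 nuclear genes of oxidative phosphorylation had a median of -0.01.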
